A study of Sus scrofa with 4 samples.

Results

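The miRNAs of the miR-17-92 cluster and of its paralogous clusters were examined in longissimus dorsi, the long muscle of the pig's back. Rows of the deposited miRNA table were taken by name, where the base name was miR-17, miR-18a, miR-18b, miR-19a, miR-19b, miR-20a, miR-20b, miR-25, miR-92a, miR-92b, miR-93, miR-106a, miR-106b or miR-363. This gave 11 of the 271 listed miRNAs, which cover 10 of the 14 base names, and miR-18b, miR-25, miR-93 and miR-106b were not analysed here. The rows were miR-17-5p, miR-17-3p, miR-18a, miR-19a, miR-19b, miR-20a, miR-20b, miR-92a, miR-92b-3p, miR-106a and miR-363.

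There were 4 small RNA libraries, with 1 library for each breed. The indigenous type consisted of the Diannan Small Ear and the Tibetan pig and the introduced type of the Landrace and the Yorkshire pig, so that each type had 2 libraries. The series addresses growth and lipid deposition. The labels give no treatment, age or sex and do not say whether a library held 1 animal or a pool, so p-values between the types reflect nothing beyond how these libraries vary, and that variation may in part be technical.

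The miR-17-92 cluster is a polycistron, a single primary transcript from which several miRNAs are cut, and vertebrate genomes carry paralogous copies of it. Its transcription is driven by MYC and E2F factors, and its products are known for favouring cell proliferation and survival. A miRNA selects its targets mainly through its seed, the bases near its 5′ end, and the cluster members fall into the miR-17, miR-18, miR-19 and miR-92 seed groups. These seed groups are background knowledge here, as no mature sequence was read. In the RefSeq annotation of the pig (assembly Sscrofa11.1), which was used for gene names and their order alone, MIR17, MIR18A, MIR19A, MIR20A, MIR19B-1 and MIR92A-1 lie next to each other with no other gene between them. MIR363-1, MIR92A-2, MIR19B-2, MIR20B-1, MIR18B and MIR106A form a second run of 6 neighbours, called the miR-106a-363 cluster below. MIR92B stands apart from both. miR-19b and miR-92a have a gene in each cluster, and the counts do not say which gene a read came from.

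Summed over all listed miRNAs, the reads came to 4500803 for Diannan Small Ear and 3592704 for Tibetan, and 2507082 for Landrace and 5346460 for Yorkshire. Each library was most like one of the other type. Pearson's r of log2 CPM across 197 miRNAs (no independent replicates) stood at 0.983 for Diannan Small Ear with Landrace. It stood at 0.973 for Tibetan with Yorkshire and at 0.771 to 0.783 for the other combinations. These 2 combinations are called the library pairs below. miR-1, a muscle-specific miRNA, took 0.256% of the Diannan Small Ear and 0.355% of the Landrace reads, against 83.4% of the Tibetan and 92.6% of the Yorkshire reads. Levels are therefore given in CPM scaled by TMM, a method that sets libraries to a common level over most miRNAs. Ratios between members of the same library, which no scaling can change, are given beside them. TMM assumes that most miRNAs do not differ between libraries. On its scale 62.9% of miRNAs were at least 2-fold apart between Diannan Small Ear and Tibetan, and 66.1% between Landrace and Yorkshire. TMM-scaled ratios across the library pairs are therefore uncertain. Intervals are 95% exact binomial intervals. Where a within-library ratio is compared between libraries, they are 95% intervals of a conditional odds ratio. Both kinds cover counting error only, and they may be too narrow, since reads are not independent molecules.

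The members were a small part of each miRNA pool, and miR-92a made up most of their reads. All 11 rows together held 0.129% of the reads in Diannan Small Ear and 0.146% in Tibetan, and 0.196% in Landrace and 0.0398% in Yorkshire. The members summed to 967 CPM in Diannan Small Ear, 1485 CPM in Tibetan, 886 CPM in Landrace and 1154 CPM in Yorkshire. The share of miR-92a among these reads was 94.6% in Diannan Small Ear (interval 94.0 to 95.2) and 91.3% in Landrace (90.4 to 92.1), against 74.2% in Tibetan (73.0 to 75.4) and 76.1% in Yorkshire (74.2 to 77.9). The other 10 rows summed to 52.2 CPM in Diannan Small Ear and 77.4 CPM in Landrace, against 383 CPM in Tibetan and 276 CPM in Yorkshire. On the TMM scale the lower share of miR-92a in Tibetan and Yorkshire thus went with higher levels of the other rows. With total counts these 10 rows were still 5.42-fold lower for Diannan Small Ear than for Tibetan but 1.80-fold higher for Landrace than for Yorkshire.

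**Figure D1:**
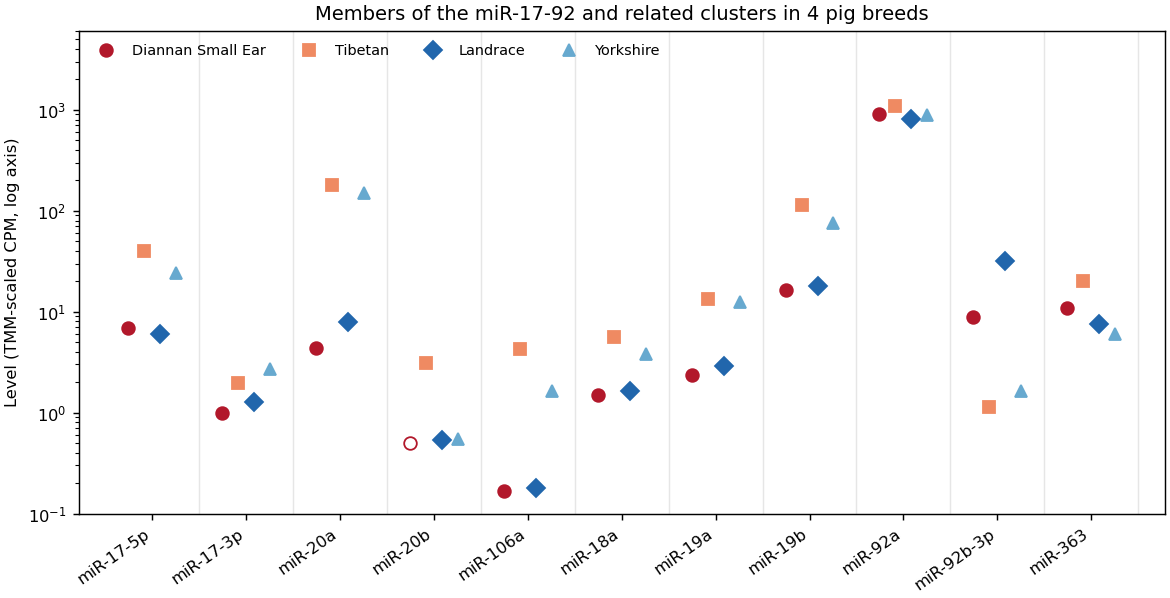
TMM-scaled CPM (log axis) of the 11 rows in each of the 4 libraries, 1 point per library; the open circle marks 0 reads of miR-20b in Diannan Small Ear, drawn at the level of 3 reads. miR-92a lies between 809 and 1102 CPM in all 4 libraries, while miR-20a is at 4.34 and 7.93 CPM in Diannan Small Ear and Landrace and at 178 and 148 CPM in Tibetan and Yorkshire.

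In the miR-92 seed group, miR-92a, known for restraining new vessel growth in endothelium, was the most abundant member. It had 5484 reads (915 CPM) in Diannan Small Ear, 3900 reads (1102 CPM) in Tibetan, 4486 reads (809 CPM) in Landrace and 1618 reads (878 CPM) in Yorkshire. It ranked 25th or 26th of the 271 miRNAs in every library. The ratio of Diannan Small Ear over Tibetan was 0.830 (0.796 to 0.865), and that of Landrace over Yorkshire 0.921 (0.870 to 0.975). With total counts they were 1.12 and 5.91, so that the direction depends on the scaling. The order from Tibetan through Diannan Small Ear and Yorkshire to Landrace on the TMM scale spanned less than a 2-fold range, with 1 library a breed and no replicate check.

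miR-92b-3p, which shares the seed of miR-92a and is encoded outside the clusters, was the one member at least 2-fold higher both for Diannan Small Ear over Tibetan and for Landrace over Yorkshire on the TMM scale. It had 53 reads (8.84 CPM) in Diannan Small Ear, 4 reads (1.13 CPM) in Tibetan, 175 reads (31.6 CPM) in Landrace and 3 reads (1.63 CPM) in Yorkshire. Diannan Small Ear and Landrace were high and the other libraries near the detection limit. Diannan Small Ear was 7.82-fold above Tibetan (2.88 to 29.8) and Landrace 19.4-fold above Yorkshire (6.52 to 94.8). Within the first library pair Diannan Small Ear was 3.57-fold below Landrace (2.61 to 4.95). miR-92b-3p was the only member with reads in both libraries that was at least 2-fold apart in that pair on the TMM scale.

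miR-363, which also has this seed and is part of the miR-106a-363 cluster, had 65 reads (10.8 CPM) in Diannan Small Ear, 72 reads (20.4 CPM) in Tibetan, 42 reads (7.57 CPM) in Landrace and 11 reads (5.97 CPM) in Yorkshire. Both indigenous libraries lay above both introduced ones on this scale. Tibetan was 3.41-fold above Yorkshire (1.80 to 7.13), and Diannan Small Ear was 1.43-fold above Landrace with an interval that included 1 (0.957 to 2.16) and a ratio of 0.862 with total counts. The ratio of miR-92a to miR-363 was 84.4 in Diannan Small Ear and 54.2 in Tibetan, and 107 in Landrace and 147 in Yorkshire.

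The miR-17 seed group, whose members repress cell cycle inhibitors such as CDKN1A, was low in Diannan Small Ear and Landrace. Its 4 rows, miR-17-5p, miR-20a, miR-20b and miR-106a, summed to 68 reads (11.3 CPM) in Diannan Small Ear and 81 reads (14.6 CPM) in Landrace, against 798 reads (226 CPM) in Tibetan and 321 reads (174 CPM) in Yorkshire. miR-20a held most of the reads that Tibetan and Yorkshire had in excess. It had 26 reads (4.34 CPM) in Diannan Small Ear, 631 reads (178 CPM) in Tibetan, 44 reads (7.93 CPM) in Landrace and 273 reads (148 CPM) in Yorkshire. Diannan Small Ear was 41.1-fold lower than Tibetan (27.8 to 63.5) and Landrace 18.7-fold lower than Yorkshire (13.6 to 26.3). The library pairs did not overlap, and the types did.

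miR-17-5p, the guide strand that names the cluster, moved the same way and less far. It had 41 reads (6.84 CPM) in Diannan Small Ear, 141 reads (39.9 CPM) in Tibetan, 33 reads (5.95 CPM) in Landrace and 44 reads (23.9 CPM) in Yorkshire. It was 5.83-fold lower for Diannan Small Ear than for Tibetan (4.09 to 8.47) and 4.01-fold lower in Landrace than in Yorkshire (2.50 to 6.51), though with total counts the ratio of Landrace over Yorkshire was 1.60. Its partner arm miR-17-3p, which has a seed of its own, stayed at 5 to 7 reads in all 4 libraries, and its ratios had intervals that included 1. Reads of the 5p arm outnumbered those of the 3p arm 6.83 to 1 in Diannan Small Ear (2.88 to 19.7), 20.1 to 1 in Tibetan (9.52 to 51.0), 4.71 to 1 in Landrace (2.05 to 12.6) and 8.80 to 1 in Yorkshire (3.50 to 28.4). In the 4 comparisons of single libraries made here, the change of this ratio had an interval that included 1, at 5 to 7 reads of the 3p arm.

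The paralogs of miR-17 and miR-20a from the miR-106a-363 cluster were near the detection limit. miR-106a had 1 read in Diannan Small Ear, 15 reads in Tibetan, 1 read in Landrace and 3 reads in Yorkshire. miR-20b had 0 reads in Diannan Small Ear, which allows up to 0.50 CPM, and 11 in Tibetan, 3 in Landrace and 1 in Yorkshire. With 3 reads as the floor and the 11 reads taken as exact, miR-20b was at least 6.21-fold lower for Diannan Small Ear than for Tibetan. The exact binomial interval gave a lower bound of 4.25-fold. Both were highest in Tibetan. miR-17-5p, miR-20a, miR-20b and miR-106a have near-identical mature sequences, as have miR-19a and miR-19b and, less closely, miR-92a, miR-92b-3p and miR-363, so reads may have been split between their rows and separate values are uncertain.

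The miR-19 seed group had the pattern of miR-17-5p, the turn with total counts in Landrace over Yorkshire included. miR-19b had 98 reads (16.4 CPM) in Diannan Small Ear, 406 reads (115 CPM) in Tibetan, 99 reads (17.9 CPM) in Landrace and 138 reads (74.9 CPM) in Yorkshire. It was 7.02-fold lower for Diannan Small Ear than for Tibetan (5.62 to 8.85) and 4.20-fold lower in Landrace than in Yorkshire (3.22 to 5.49), where total counts gave a ratio of 1.53. miR-19a had 14 reads (2.34 CPM) in Diannan Small Ear, 47 reads (13.3 CPM) in Tibetan, 16 reads (2.88 CPM) in Landrace and 23 reads (12.5 CPM) in Yorkshire. Its ratios were close to those of miR-19b, 5.69-fold lower (3.08 to 11.2) and 4.33-fold lower (2.19 to 8.77) in the same order, with a ratio of 1.48 by total counts in the second.

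miR-18a, from the primary transcript of miR-17, was the scarcest row tested. It had 9 reads (1.501 CPM) in Diannan Small Ear, 20 reads (5.65 CPM) in Tibetan, 9 reads (1.62 CPM) in Landrace and 7 reads (3.80 CPM) in Yorkshire. Diannan Small Ear was 3.77-fold below Tibetan (1.64 to 9.39). Landrace was 2.34-fold below Yorkshire, with an interval that included 1 (0.741 to 7.07) and a ratio of 2.74 by total counts.

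**Figure D2:**
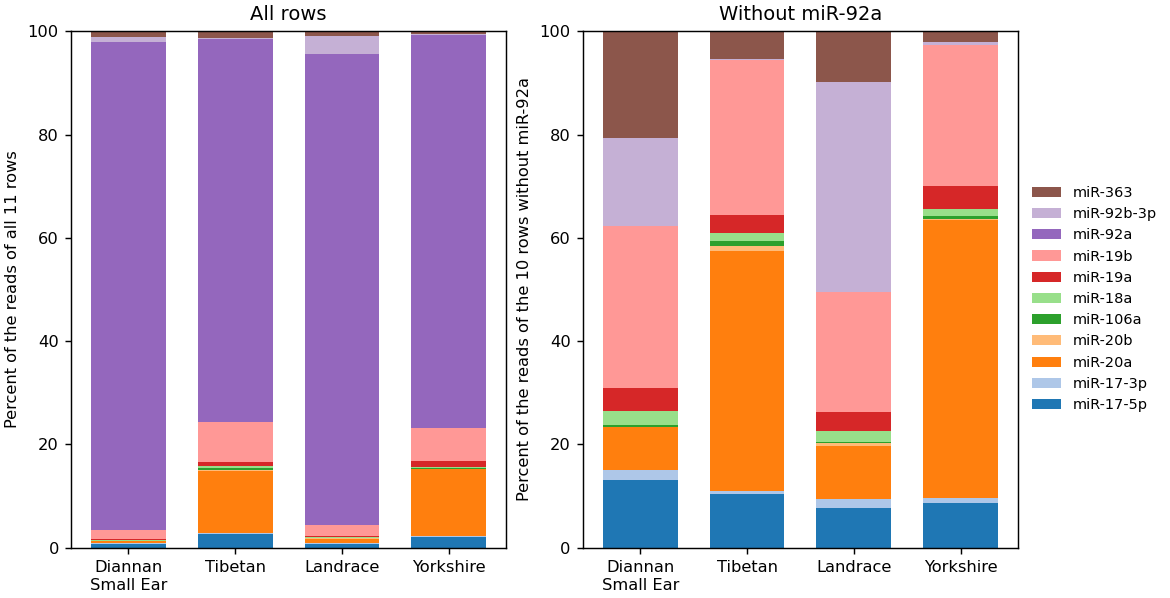
Percent of the members' reads in each library by row, for all 11 rows (left) and for the 10 rows without miR-92a (right), 1 bar per library. Without miR-92a, miR-20a is 8.31% of the reads in Diannan Small Ear and 10.3% in Landrace, where miR-92b-3p takes 16.9% and 40.8%, against 46.6% in Tibetan and 53.7% in Yorkshire.

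By cluster, the 5 rows found in the miR-17-92 cluster alone summed to 16.0 CPM in Diannan Small Ear and 19.7 CPM in Landrace, against 239 CPM in Tibetan and 191 CPM in Yorkshire. They were 14.9-fold lower for Diannan Small Ear than for Tibetan (12.1 to 18.6). In Landrace they were 9.72-fold lower than in Yorkshire (7.82 to 12.2), which total counts reduce to 1.51-fold. miR-20a held 631 of the 846 reads of this sum in Tibetan and 273 of the 352 in Yorkshire. With total counts miR-17-5p, miR-17-3p, miR-18a and miR-19a were higher in Landrace than in Yorkshire. The 3 rows found in the miR-106a-363 cluster alone summed to 11.01 CPM in Diannan Small Ear, 27.7 CPM in Tibetan, 8.29 CPM in Landrace and 8.14 CPM in Yorkshire. They were 2.52-fold lower for Diannan Small Ear than for Tibetan (1.82 to 3.49), and the ratio of Landrace over Yorkshire was 1.02 (0.558 to 1.96) with TMM and 6.54 with total counts. The rows with a gene in both clusters, miR-19b and miR-92a, held 96.3% of the members' reads in Diannan Small Ear and 82.0% in Tibetan, and 93.3% in Landrace and 82.6% in Yorkshire.

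Ratios between some members of the same library differed across the library pairs, while those between other members had overlapping intervals. miR-92a and miR-19b have a gene in each cluster, and miR-92b-3p lies outside both. Ratios with these rows are therefore not proportions within a single primary transcript. Of the ratios given below, only miR-20a to miR-17-5p and miR-17-5p to miR-18a use members of a single cluster. The pairs of members compared were chosen with the values known. miR-92a outnumbered miR-20a 211 to 1 in Diannan Small Ear (144 to 323) and 102 to 1 in Landrace (75.8 to 140.5), but 6.18 to 1 in Tibetan (5.68 to 6.73) and 5.93 to 1 in Yorkshire (5.21 to 6.76). The ratio was thus 34.1-fold higher in Diannan Small Ear than in Tibetan (23.0 to 52.8) and 17.2-fold higher in Landrace than in Yorkshire (12.4 to 24.3). Inside the library pairs it was 2.07-fold higher for Diannan Small Ear than for Landrace (1.24 to 3.51) and differed 1.04-fold between Tibetan and Yorkshire (0.891 to 1.22).

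The ratio of miR-92a to miR-17-5p was 4.83-fold higher in Diannan Small Ear than in Tibetan (3.38 to 7.04) and 3.70-fold higher in Landrace than in Yorkshire (2.29 to 6.01). For miR-92a to miR-19b these values were 5.82-fold (4.64 to 7.37) and 3.86-fold (2.94 to 5.09). By contrast, miR-19b to miR-17-5p measured 2.39 in Diannan Small Ear (1.64 to 3.53), 2.88 in Tibetan (2.37 to 3.51), 3 in Landrace (2.01 to 4.59) and 3.14 in Yorkshire (2.22 to 4.51), with intervals that overlap in all 4 libraries. miR-19b to miR-19a, between 6 and 8.64, and miR-17-5p to miR-18a, between 3.67 and 7.05, overlapped as well. The latter intervals were wide, at 1.72 to 8.71 in Landrace and 2.81 to 16.5 in Yorkshire, with 9 and 7 reads of miR-18a. Overlap of such intervals does not show that a proportion stayed the same.

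miR-20a did not keep its proportion to miR-17-5p. Its reads stood at 0.634 of those of miR-17-5p in Diannan Small Ear (0.372 to 1.06) and 1.33 in Landrace (0.830 to 2.16), against 4.48 in Tibetan (3.72 to 5.41) and 6.20 in Yorkshire (4.50 to 8.74). The proportion was 7.03-fold lower for Diannan Small Ear than for Tibetan (4.05 to 12.4) and 4.63-fold lower in Landrace than in Yorkshire (2.57 to 8.36). miR-92a to miR-92b-3p was also lower in Diannan Small Ear and Landrace, opposite to miR-92a to miR-20a. It measured 103 to 1 in Diannan Small Ear (79.0 to 138) and 25.6 to 1 in Landrace (22.0 to 30.0). In Tibetan it was 975 to 1 (380.5 to 3580) and in Yorkshire 539 to 1 (184 to 2618). Inside the pair of Diannan Small Ear and Landrace these ratios differed as well. In Diannan Small Ear over Landrace, miR-92a to miR-92b-3p was 4.04-fold higher (2.94 to 5.61), and miR-20a to miR-17-5p stood at 0.478 (0.231 to 0.976). With 1 library a breed, none of these contrasts can be told apart from a difference in how the libraries were made.

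**Figure D3:**
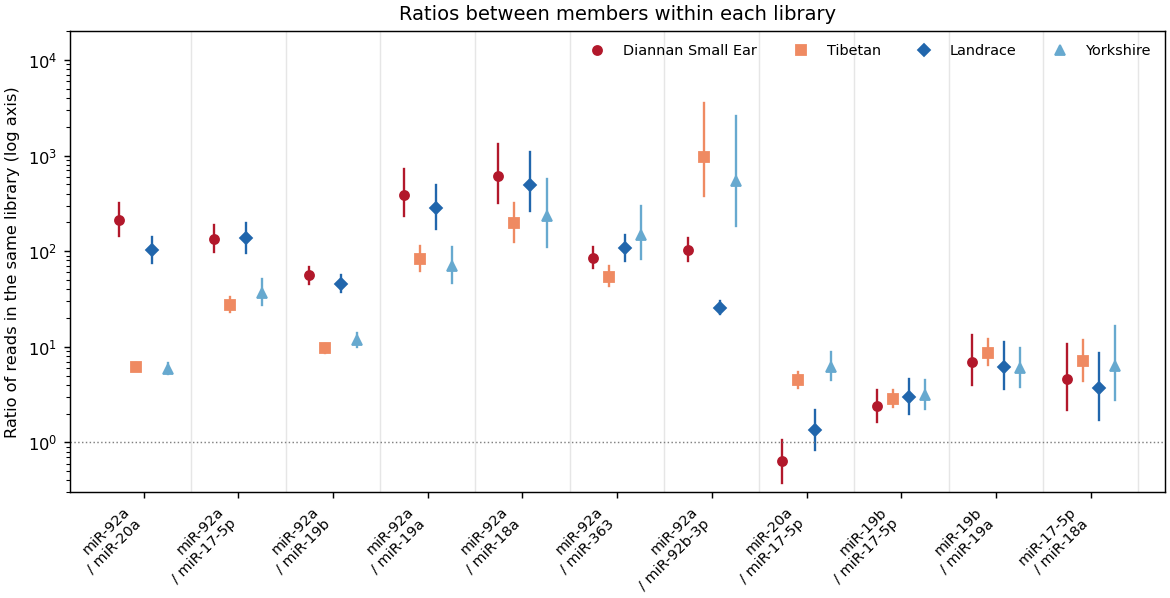
Ratio of the reads of 2 members in the same library (log axis) with 95% exact binomial intervals, 1 point per library. Ratios of miR-92a to miR-20a fall at 211 and 102 in Diannan Small Ear and Landrace and at 6.18 and 5.93 in Tibetan and Yorkshire, while miR-19b to miR-17-5p lies between 2.39 and 3.14 in all 4.

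Most miRNAs of the table differed between the library pairs, so the members are set against all rows. Between Diannan Small Ear and Tibetan, 62.9% of 232 miRNAs with reads in both libraries differed at least 2-fold, 37.9% lower and 25% higher in Diannan Small Ear. Of the 10 members with reads in both, 6 were at least 2-fold lower and 1, miR-92b-3p, higher. The median log2 ratio was -2.21 for these members and -0.30 for all miRNAs. Between Landrace and Yorkshire 66.1% of 227 miRNAs differed at least 2-fold, 38.8% lower and 27.3% higher in Landrace. Of the 11 members 7 were lower and 1 higher. There the median log2 ratio was -1.23 for the members and -0.46 for all.

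Scaling by total counts changed the second comparison. It multiplies each ratio of Landrace over Yorkshire by 6.42, so that 6 members were at least 2-fold higher in Landrace and 1, miR-20a, at least 2-fold lower. The median log2 ratio then stood at 1.46 for the members and 2.22 for all miRNAs. miR-20a was still 2.91-fold lower in Landrace than in Yorkshire and 30.4-fold lower for Diannan Small Ear than for Tibetan.

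Inside the library pairs, which set an indigenous against an introduced breed, the members were closer. Between Diannan Small Ear and Landrace 1 of 10 members differed at least 2-fold, being lower in Diannan Small Ear, against 17% of 241 miRNAs either way and 9.96% lower. The member median was -0.12 against -0.04 for all (log2). Between Tibetan and Yorkshire 3 of 11 did, all higher in Tibetan, against 27.1% of 225 miRNAs either way, 15.6% higher and 11.6% lower. There the medians were 0.57 and 0.11. The 3 were miR-363, miR-20b and miR-106a, all of the miR-106a-363 cluster. miR-20b had 1 read and miR-106a 3 reads in Yorkshire, with ratios of 5.73 (0.832 to 246) and 2.60 (0.736 to 14.0). Total counts make the ratio of Tibetan over Yorkshire 2.86 times larger and that of Diannan Small Ear over Landrace 0.602 times as large.

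**Figure D4:**
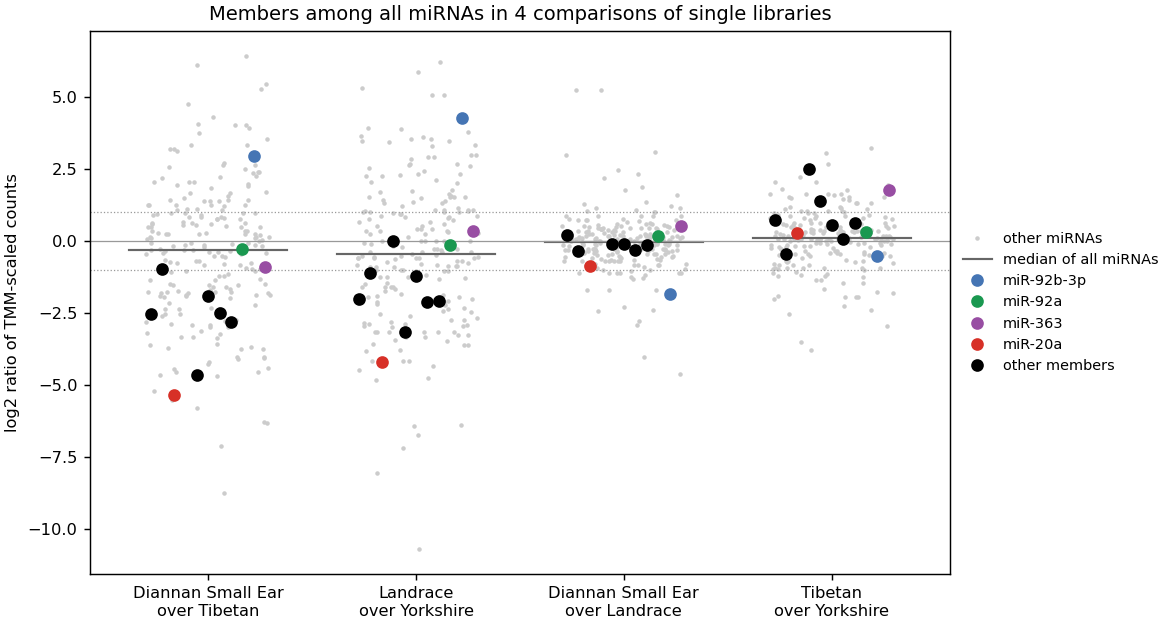
log2 ratio of TMM-scaled counts in 4 comparisons of single libraries, for every miRNA with reads in both (grey points, the bar is their median with members included) and for the members (large points). miR-20a lies at -5.36 and -4.22 and miR-92b-3p at 2.97 and 4.28 in the comparisons between library pairs (left), and most members are within the dotted 2-fold lines inside the pairs (right).

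Between the types, indigenous against introduced, 8 of the 11 members passed the low-count filter, and miR-17-3p, miR-20b and miR-106a did not. No member passed the threshold (0 of 8, edgeR quasi-likelihood test with Benjamini-Hochberg adjustment over 197 miRNAs, adjusted p of 0.996 for each), and 0% of all tested miRNAs did. Of these members 0 had an unadjusted p under 0.05 by edgeR, DESeq2 or limma-voom with type alone. With a term for the library pair in edgeR 1 member had one, miR-92b-3p (unadjusted p = 0.0296, adjusted p = 0.554), and 1 of all tested miRNAs, no member, passed the threshold. That term was chosen from the likeness of these same libraries, so its p-values may be too small. The indigenous breeds had 1009 ± 133 CPM of miR-92a and the introduced breeds 844 ± 49.2 CPM (SD, n = 2 each). Its log2 fold change was 0.26 ± 0.82 (SE). miR-363 measured 15.6 ± 6.72 against 6.77 ± 1.13 CPM, with 1.19 ± 0.88. miR-92b-3p measured 4.98 ± 5.45 against 16.6 ± 21.2 CPM, with -1.73 ± 1.73, the one lower estimate among the tested members.

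For miR-20a, miR-19b and miR-17-5p, which separated the library pairs on the TMM scale, the SD within a type was close to the mean or above it. miR-20a stood at 91.4 ± 123 CPM for the indigenous and 78.1 ± 99.2 CPM for the introduced type, with a log2 fold change of 0.23 ± 2.10. miR-19b measured 65.6 ± 69.6 against 46.4 ± 40.4 CPM (0.50 ± 1.41) and miR-17-5p 23.4 ± 23.4 against 14.9 ± 12.7 CPM (0.65 ± 1.35). miR-18a measured 3.58 ± 2.94 against 2.71 ± 1.54 CPM (0.42 ± 0.99), and the estimate of miR-19a was 0.04 ± 1.29. The types did not overlap for miR-92a and miR-363, both higher in indigenous breeds, which is 2 of the 8 tested members beside 13.7% of all tested miRNAs, 8.12% higher and 5.58% lower in indigenous breeds. With total counts this held for 0 of 8 members and 2.03% of all. The median log2 fold change of the tested members was 0.34 with TMM, 0.76 with total counts and 0.24 with the pair term, beside 0.12, 0.11 and 0.12 for all tested miRNAs.

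**Figure D5:**
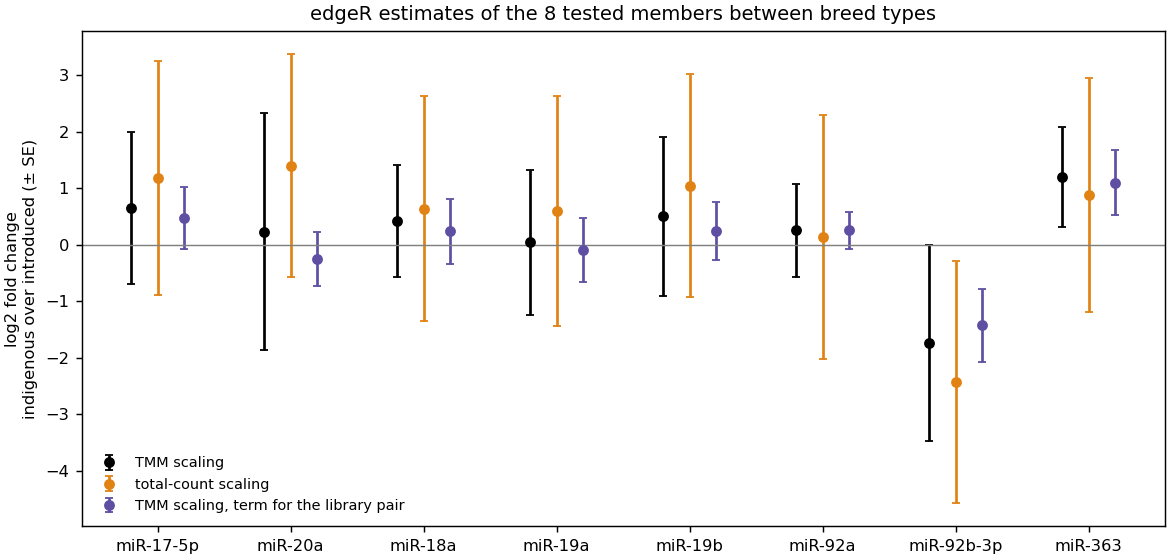
edgeR log2 fold change of indigenous over introduced breeds with its SE for the 8 tested members (2 libraries per type), under TMM scaling, total-count scaling and TMM with a term for the library pair. With TMM the estimates run from -1.73 for miR-92b-3p to 1.19 for miR-363, and none passed the threshold under any of the 3.

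The authors' deposited table gave another picture of the same contrast. In the authors' deposited table, 3 of the 11 members had an FDR under 0.05, beside 30.6% of all 271 miRNAs. These were miR-20a, with a fold of 2.64 of indigenous over introduced and an FDR of 2.31e-06, miR-19b, with 2.06 and 0.00201, and miR-92b-3p, with 0.183 and 4.34e-05, all from the authors' deposited table. The sources used here do not name the test behind these values. miR-20a and miR-19b overlapped between the types in both scalings above, with Tibetan highest and Diannan Small Ear lowest.

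Markers of cell types were read in the same libraries, as bulk muscle holds several cell types and fewer cells of a type and less RNA per cell cannot be told apart. The striated muscle list, with 6 of 6 names found and no member at 0, took 5.83% of the reads in Diannan Small Ear and 89.8% in Tibetan, and 7.35% in Landrace and 96.6% in Yorkshire. Most of this was miR-133a-3p in Diannan Small Ear and Landrace and miR-1 in Tibetan and Yorkshire, and the list did not move together. miR-133a-3p had 40624 CPM in Diannan Small Ear and 29179 CPM in Tibetan, and 30191 CPM in Landrace and 32543 CPM in Yorkshire. The erythroid list (3 of 3 names, none at 0) took 11.8%, 0.609%, 14.3% and 0.204%, in that order of libraries. Its members did not move together. miR-144 had 3.67 CPM in Diannan Small Ear and 136 CPM in Tibetan, and 6.31 CPM in Landrace and 44.0 CPM in Yorkshire. miR-451 had 63.7 CPM in Diannan Small Ear and 233.8 CPM in Tibetan, and 110.7 CPM in Landrace and 93.4 CPM in Yorkshire. miR-486, nearly all of the sum, was higher in Diannan Small Ear than in Tibetan and in Landrace than in Yorkshire. The white blood cell list (6 of 7 names, none at 0) summed to 208 CPM in Diannan Small Ear and 339 CPM in Tibetan, and 192 CPM in Landrace and 247 CPM in Yorkshire. Most of this sum was miR-146a-5p, and the rows of the list did not move together. In the same order of libraries miR-142-3p had 1.501, 24.31, 1.983 and 19 CPM. Its partner arm miR-142-5p varied less, at 34.86, 36.18, 25.24 and 37.46 CPM. miR-155-5p went the other way between the library pairs, at 6.839, 4.523, 6.851 and 3.257 CPM.

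The endothelial list, the 2 arms of miR-126, summed to 2511, 3011, 2906 and 1817 CPM in the order Diannan Small Ear, Tibetan, Landrace and Yorkshire. The sum followed miR-126-5p, at 2365, 1859, 2726 and 1238 CPM. The other arm, miR-126-3p, went the other way between the library pairs, at 146, 1152, 180 and 578 CPM. In that order the stromal list (4 of 4 names) gave 11025, 15595, 13344 and 8048 CPM and the liver list (2 of 3) 501, 9.89, 431 and 11.9 CPM. The stromal sum was nearly all miR-143-3p, with 13015 CPM in Landrace and 7406 CPM in Yorkshire. miR-145-5p, miR-199a-3p and miR-214 were lower in Landrace (39.7, 279.5 and 10.3 CPM) than in Yorkshire (99.9, 526.6 and 15.2 CPM). In the order above the neural list (3 of 3 names) gave 794, 404.5, 525 and 295 CPM, nearly all of it miR-128. miR-124a was at 0 in Diannan Small Ear and Landrace and miR-9 at 0 in Tibetan. Of the epithelial names 1 of 4 was found, miR-205, at 1 to 15 reads. The muscle sum was thus lower, and the erythroid and liver sums higher, in Diannan Small Ear and Landrace. In these sums miR-1, miR-486 and miR-192 held most of the difference, while miR-122, the defining liver miRNA, had 2.67, 2.83, 14.1 and 4.89 CPM in the order above. The part of these lists in the members' differences was not tested.

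The miRNAs whose profile over the 4 libraries was closest to the members' sum were sought among the 132 other miRNAs whose mean reached 10 CPM. By Euclidean distance of centred log2(CPM + 1) values these were miR-125b (0.107), miR-146a-5p (0.175), miR-30c-5p (0.253), miR-150 (0.256) and miR-30e-5p (0.279), where the median candidate was at 1.89. All 5 were highest or next to highest in Tibetan. The members' sum was mostly miR-92a, from 74.2% of it in Tibetan to 94.6% in Diannan Small Ear. For the 5 rows of the miR-17-92 cluster alone, a profile added with the values known, the closest were miR-133a-5p (0.176), miR-374b-5p (0.217), miR-450a (0.223), miR-450c-5p (0.310) and miR-140-5p (0.379), at a median of 3.42. miR-133a-5p, the partner arm of a muscle miRNA, had 50.2 CPM in Diannan Small Ear, 618.5 CPM in Tibetan, 55.5 CPM in Landrace and 564 CPM in Yorkshire. In Tibetan and Yorkshire the sum of the cluster rows was mostly miR-20a. With 4 libraries such likeness is a description of these libraries.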

How the data were processed

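Small RNA from longissimus dorsi was extracted with Trizol, and the libraries were built with the Balancer small RNA kit, per the labels' protocols. The authors deposited whole-number read counts for 271 miRNAs in 4 libraries, per the file headers. Neither an aligner nor a genome build is given in the sources used here. The authors also deposited CPM values (count over column total), a mean signal per type, the ratio of these means as a fold, and p-values with FDR, whose test no source used here names.

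All tests started from the counts as deposited. edgeR 4.0.16 (glmQLFit and glmQLFTest, two-sided) was run on all miRNAs kept by filterByExpr (197), with TMM scaling, Benjamini-Hochberg adjustment and a threshold of 0.05. It had 2 residual degrees of freedom, and its biological coefficient of variation was 98.6%. The script was tested on simulated data with less variation than these libraries and no library pairs. That test does not show which changes the fit could detect here. Levels printed in CPM are counts over the TMM-scaled library size, with no length scaling. Breeds had 1 library each and were compared without a test, at 2-fold, with 95% exact binomial intervals from scipy 1.17.1. Changes of a within-library ratio between breeds are conditional odds ratios with 95% intervals, also from scipy. A count of 0 was taken to allow 3 counts, which is 0.50 to 1.63 CPM over the 4 libraries.

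All 11 rows that matched the naming rule were described. miR-17-3p was kept out of the miR-17 seed group. Markers were matched by exact name or, failing that, by name with an arm suffix. The members, lists and the term for the library pair were chosen with earlier results of these data known. Alternatives were scaling by RLE, by the upper quartile and by total counts, other filters, DESeq2 1.42.0, limma-voom (limma 3.58.1), the library-pair term, each library left out, the table without its 5 most abundant miRNAs, summed seed groups, a minimum of 10 reads, and 0.5 reads added to each count.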

Additional observations from a re-analysis of the deposited data

Results flagged for a closer look

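miR-20a differed in direction between the library pairs, with indigenous over introduced at 0.547 for Diannan Small Ear over Landrace (0.323 to 0.908) and 1.203 for Tibetan over Yorkshire (1.04 to 1.39), TMM-scaled. Both counting intervals exclude 1 on this scale, and they do not cover the choice of scaling. The ratio of Tibetan over Yorkshire was 1.10 with RLE and 1.13 with upper-quartile scaling, closer to 1, and that of Diannan Small Ear over Landrace was 0.498 and 0.540. The difference was not tested, since each side has 1 library.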

How the results depend on the processing

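The count of members past the threshold between the types was 0 in all 14 alternatives, and the lowest adjusted p of any member was 0.554 (miR-92b-3p with the library-pair term). Estimates that changed sign were those of miR-20a (-0.38 with limma-voom and -0.26 with the pair term) and miR-19a (-0.10 with RLE, -0.06 with upper-quartile scaling, -0.11 with DESeq2 and -0.09 with the pair term), and the cause was not tested. Without 1 library, log2 fold changes ranged from -4.15 to 3.39 for miR-20a, -1.10 to 1.83 for miR-17-5p, -0.79 to 0.98 for miR-18a, -1.68 to 1.29 for miR-19a, -1.49 to 1.74 for miR-19b and -3.98 to 1.78 for miR-92b-3p. miR-92a (0.12 to 0.36) and miR-363 (0.67 to 1.53) kept their sign. These fits set 1 library against 2 from both library pairs, and the lone library is assumed to vary like the others.

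Counts of members at least 2-fold apart also moved. Between Diannan Small Ear and Tibetan the count was 7, and 4 with at least 10 reads in both libraries. Between Landrace and Yorkshire it was 8, and 4 with that minimum. Between Diannan Small Ear and Landrace it was 1, but 2 with RLE and 4 with total counts. Between Tibetan and Yorkshire it was 3, but 10 with total counts and 1 with the minimum. With the seed groups summed (5 rows in place of 11) the counts were 3, 4, 0 and 0 in this order. With total counts the ratio of Landrace over Yorkshire turned to 1.60 for miR-17-5p, 2.99 for miR-17-3p, 2.74 for miR-18a, 1.48 for miR-19a and 1.53 for miR-19b, as total counts raise every ratio of that comparison. Adding 0.5 reads left all 59 within-library ratios inside their intervals. The labels give no replicate numbers, so the only block fitted was the term for the library pair, which rests on the likeness of the libraries. With it 1 of all tested miRNAs, and no member, passed the threshold. Depth limits miR-17-3p, miR-18a, miR-20b and miR-106a, which had at most 20 reads in any library.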

Other observations

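Of 14 miRNAs outside the family that are known to act on the cell cycle, 12 names matched 13 rows, and 11 rows were tested between the types. By edgeR 0 passed, with 6 higher and 5 lower estimates and a median log2 fold change of 0.08. miR-16 and miR-195, which share a seed and repress cyclins, differed in opposite directions between the library pairs on the TMM scale. With total counts, which multiply ratios of Landrace over Yorkshire by 6.42, miR-195 and miR-24-3p turn to higher in Landrace. miR-16 had 835 CPM in Diannan Small Ear, 389.8 CPM in Tibetan, 785 CPM in Landrace and 614 CPM in Yorkshire. miR-195 had 61.4 CPM in Diannan Small Ear, 177 CPM in Tibetan, 76.3 CPM in Landrace and 136 CPM in Yorkshire. miR-24-3p, encoded beside miR-23 and miR-27, had 213.5 and 1069 CPM in Diannan Small Ear and Tibetan, and 249.7 and 959 CPM in Landrace and Yorkshire. In that order miR-26a, the most abundant row, had 21560, 6826, 16974 and 9283 CPM, and let-7a 4570, 492, 5855 and 598 CPM. For Diannan Small Ear over Tibetan 5 of 12 rows were at least 2-fold higher and 4 lower, beside 25% and 37.9% of all miRNAs. For Landrace over Yorkshire 2 of 13 were higher and 3 lower, beside 27.3% and 38.8%. miR-34c had 0 and 0 reads in Diannan Small Ear and Tibetan, and 30 and 6 reads in Landrace and Yorkshire. It did not pass the low-count filter, and it was chosen for mention after its values were seen.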
